A study of Mus musculus with 24 samples.

Results

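Genes of cardiac calcium handling and of the depolarising currents, 9 in number, were followed over the day in the myocardium of male mice with the genotype Clock delta 19/delta 19: Cacna1c, Cacnb2, Slc8a1, Hcn4, Ryr2, Casq2, Atp2a2, Pln and Camk2d. They were chosen by name and found as the array features whose only gene symbol in the platform's probe-to-gene table was one of these, which gave 10 of 34351 features and 9 of 22180 genes. Cacnb2 had 2 features, which were averaged, and each of the other genes had 1. The hearts of 24 mice, all 8 weeks old, were sampled under 12 h of light and 12 h of dark, with 4 biological replicates at each of 6 zeitgeber times (ZT, hours after lights on): ZT03, ZT07 and ZT11 in the light, ZT15, ZT19 and ZT23 in the dark. Every heart carried the mutation, hearts of another genotype were not analysed here, and the labels name no chamber of origin. The Clock delta 19 allele makes a Clock protein that lacks the residues of one exon and activates its target genes poorly, so the comparisons below ask which transcripts of this pathway differed between times of day in hearts with an impaired circadian clock.

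In a heart muscle cell the action potential opens L-type calcium channels in the surface membrane, and the calcium that enters opens ryanodine receptors on the sarcoplasmic reticulum, which release far more. Relaxation follows when the reticulum's calcium pump takes calcium back up and the sodium-calcium exchanger carries the rest out of the cell, at the cost of an inward current. A separate current through hyperpolarisation-activated channels depolarises pacemaker cells of the sinoatrial node, and both pacing and calcium cycling are tuned by kinases under adrenergic control.

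The values were deposited on a log scale that was taken here as log2 and had been centred, so that 0 is each feature's own median over the 24 hearts. A value of 0.10 is thus a level above that gene's median, and levels cannot be set between genes; were the base e, every difference given below would be 1.44 times larger. Errors after ± are SE of the fit unless SD is written, and n is 4 hearts per time point. The number of arrays limits the precision, and the median SD among hearts of 1 time point was 0.087 over all genes. The spacing of the deposited digits showed which features had values between 8 and 16 before centring, a class of 666 features, against the class from 4 to 8. Of the cardiomyocyte markers 10 of 11 were in that class, of the ventricular markers 1 of 5, of the atrial markers 1 of 9 and of the sinoatrial node markers 0 of 7, so this coarse class did not tell the chambers apart. Atp2a2, Cacna1c, Casq2, Pln and Ryr2 were in it too, and Cacnb2, Camk2d, Hcn4 and Slc8a1 were not. ZT11 replicate 1 stood apart, holding the highest or lowest value of 16.2% of all genes, and had the lowest array weight, 0.54.

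None of the 9 genes passed the test for a difference among the 6 time points at an adjusted p under 0.05 (limma's moderated F test, Benjamini-Hochberg over all genes), where 1.48% of all genes passed. At an unadjusted p under 0.05 there were 5 of 9, Cacna1c, Slc8a1, Hcn4, Casq2 and Camk2d, against 13.4% of all genes. The 6 time-point means of a gene spanned from 0.068 for Pln to 0.27 for Cacna1c, which are 1.05-fold and 1.20-fold between the highest and the lowest mean; the median span over all genes was 0.12, and 6 of the 9 genes lay above it. The highest mean fell at ZT03 for Cacna1c, Hcn4, Ryr2 and Casq2, at ZT07 for Pln and Camk2d, at ZT11 for Atp2a2, at ZT15 for Cacnb2 and at ZT23 for Slc8a1. The members thus had no time of highest level in common.

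**Figure D1:**
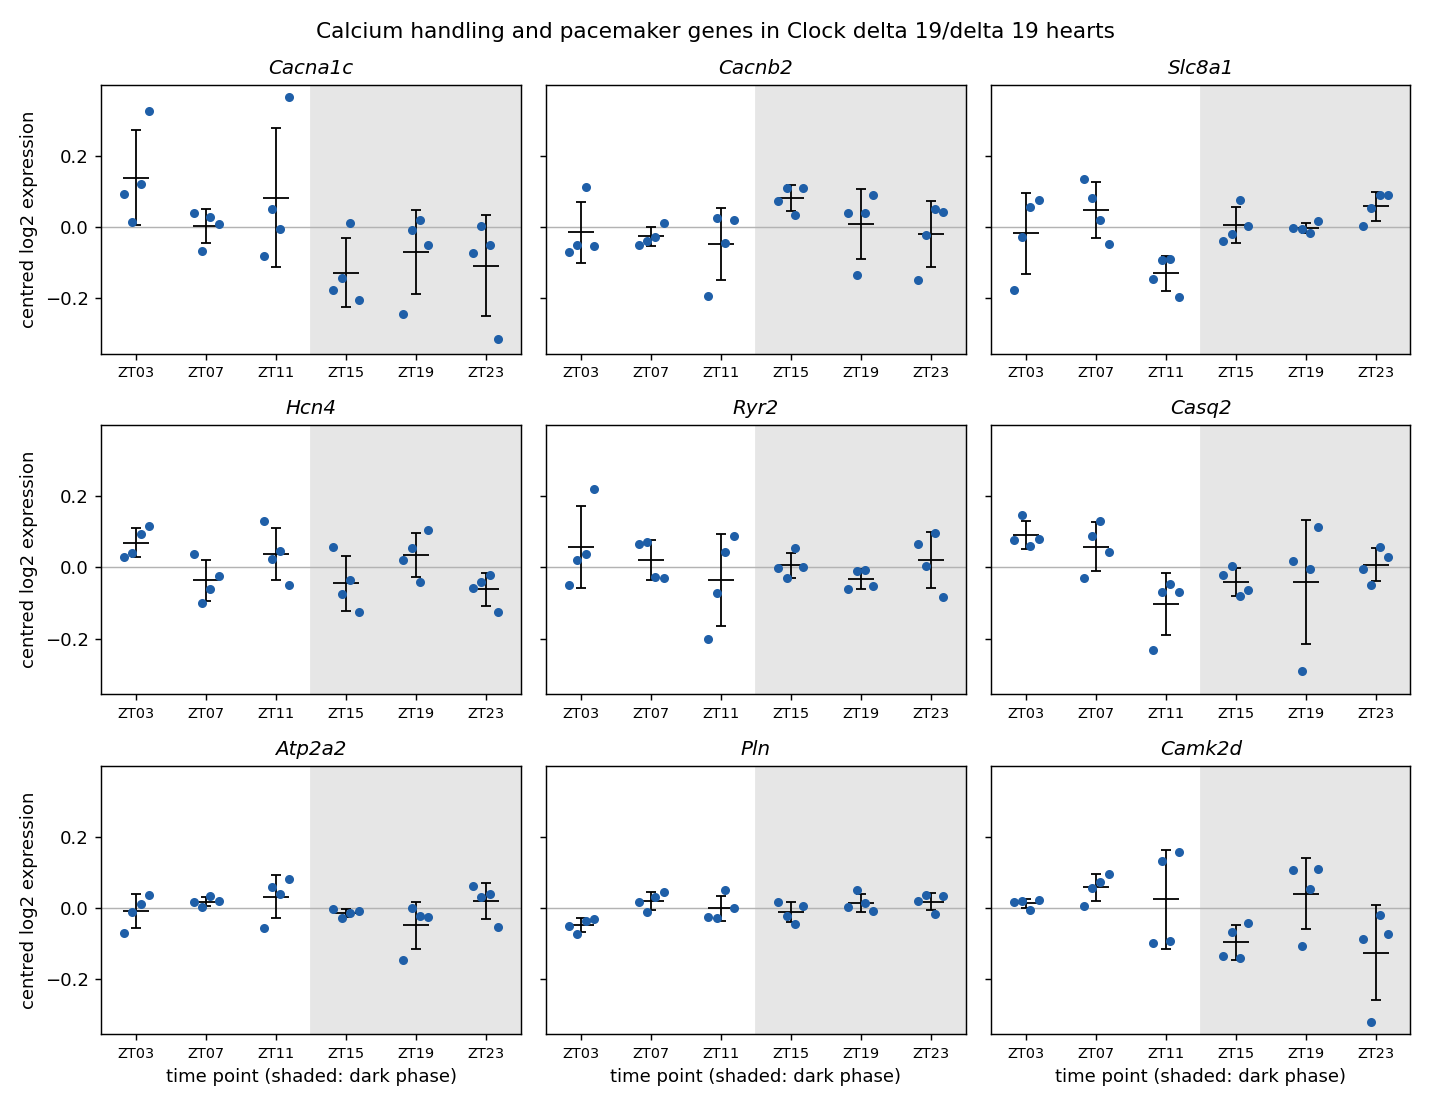
Level of each of the 9 genes in each heart (points) at the 6 time points, as centred log values taken as log2; black bars give the mean and SD of 4 hearts, and shading marks the dark phase. Cacna1c spread widely within a time point, from -0.080 to 0.37 at ZT11, whereas all hearts for Pln stayed between -0.073 and 0.049.

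Cacna1c encodes the pore-forming subunit of the L-type channel, the main route of calcium entry in ventricular muscle. In the 12 light-phase hearts it ran from -0.080 through a median of 0.034 to 0.37, and in the 12 dark-phase hearts from -0.32 through -0.061 to 0.020. All 12 dark-phase hearts lay below the light-phase median, and 10 of 12 light-phase hearts lay above the dark-phase median, although the phases overlapped. The mean of 8 skeletal muscle markers ran against Cacna1c over the 24 hearts (Pearson r = -0.53, Spearman rho = -0.67, permutation adjusted p = 0.16 and 0.017; r = -0.54 without the 2 hearts farthest from the median). That mean lay between -0.13 and 0.045 in the light-phase hearts and between -0.081 and 0.12 in the dark-phase hearts, 3 of the 8 markers had an unadjusted p under 0.05 for light against dark and 0 passed in limma, and its part in the result was not tested. The difference of Cacna1c, light minus dark, was 0.18 ± 0.05 (95% interval 0.071 to 0.28), with an adjusted p of 0.14 over all genes in limma; 1.58% of all genes had a smaller p. For light against dark 0.379% of all genes passed, and the counts of members were 0 of 9 after adjustment and 2 of 9, Cacna1c and Camk2d, at an unadjusted p under 0.05, against 10.5% of all genes.

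The mean of Cacna1c was highest at ZT03, early in the light phase. At ZT03 the 4 hearts were at 0.094, 0.014, 0.12 and 0.33, at ZT15 at -0.18, -0.14, 0.013 and -0.21, and at ZT23 at -0.072, 0.0044, -0.051 and -0.32. Each ZT03 heart was above each heart of both dark time points, by 0.27 ± 0.09 on average against ZT15 (limma adjusted p = 0.15) and 0.25 ± 0.09 against ZT23 (limma adjusted p = 0.22). At ZT11 replicate 4 alone was at 0.37, while the others were at -0.080, 0.050 and -0.0044. A 24 h cosine gave an amplitude (mean to peak) of 0.10 ± 0.04 with its peak at ZT 6.2 h (limma adjusted p = 0.45); in this test 0.0631% of all genes passed and 0 of 9 members, with 2 of 9, Cacna1c and Casq2, at an unadjusted p under 0.05 against 10.8% of all genes. With 1 cycle sampled, such a fit describes the profile only.

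Cacnb2 encodes a beta subunit that carries the channel pore to the membrane and sets its gating. In the light-phase hearts its values ran from -0.19 through a median of -0.042 to 0.11, and in the dark-phase hearts from -0.15 through 0.041 to 0.11. Here 11 of 12 light-phase hearts were below the dark-phase median, the opposite side from Cacna1c, and the difference, light minus dark, was -0.053 ± 0.03 (95% interval -0.12 to 0.013, limma adjusted p = 0.59). At ZT15 the hearts were at 0.073, 0.11, 0.034 and 0.11 and at ZT11 at -0.19, 0.027, -0.045 and 0.020, which do not overlap; the mean was 0.13 ± 0.06 higher at ZT15 (limma adjusted p = 0.62), and 0.081 higher without ZT11 replicate 1, the heart at -0.19. The 2 features of Cacnb2 followed each other little (Pearson r = 0.17, Spearman rho = 0.14 over 24 hearts), and the step from ZT11 to ZT15 was 0.22 ± 0.10 in the first and 0.038 ± 0.04 in the second.

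**Figure D2:**
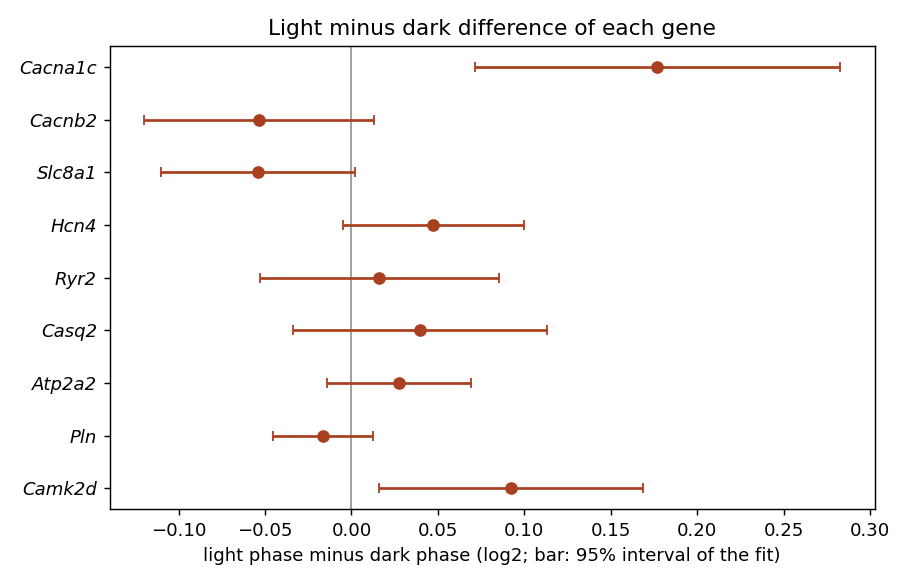
Light-phase minus dark-phase difference of each of the 9 genes on the log scale taken as log2, with 95% confidence intervals from limma (12 hearts per phase). The intervals of Cacna1c (0.071 to 0.28) and Camk2d (0.016 to 0.17) lie to the right of 0, and the other 7 include 0; none of the 9 passed after adjustment over all genes.

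Because both subunits belong to 1 channel, the difference Cacna1c minus Cacnb2 was taken within each heart. In the light it ran from -0.027 through a median of 0.059 to 0.38, and in the dark from -0.36 through -0.12 to 0.13. All 12 light-phase hearts were above the dark-phase median. The shift between phases was 0.23 (permutation test, two-sided, 100000 permutations, p = 0.00098, adjusted p = 0.0039 over the 4 differences taken). It stayed between 0.21 and 0.25 when any 1 heart was left out, and was 0.26 with the first Cacnb2 feature alone and 0.20 with the second. Cacna1c had been seen to differ between the phases before this difference was formed. The within-heart difference is thus no independent support for that gene's own difference, light minus dark 0.18, beside -0.053 for Cacnb2. Its p was taken on the same hearts whose values were known. The adjustment covers the 4 chosen pairs only, and other pairs of genes were not tested.

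Start regions of both subunit genes are shown because their within-heart difference shifted between light and dark. That of the release channel is shown because Ryr2 varied with Cacna1c within time points. The choice also rests on 2 of these regions holding a motif match. RefSeq, on GRCm38.p6, lists 11 start sites for 8 of the 9 genes; Atp2a2 is not among them. The 250 bases before each start were searched on both strands for the E-box CACGTG, the related CACGTT, the D-box TTANGTAA, the nuclear receptor half-site AGGTCA, the cyclic AMP response half-site TGACGT and a MEF2-type site; no found match overlaps another. The MEF2-type site was searched only in the form that begins with C and ends with G. Other forms of it were not searched, so they may be present in these windows. The E-box, its relative, the D-box and this form of the MEF2-type site had 0 matches in the 11 windows. They were in 6.02%, 3.85%, 2.06% and 3.20% of 32851 RefSeq promoters. AGGTCA was in 1 window, before Ryr2, against 14.02% of promoters, and TGACGT in 1 window, before the second Cacnb2 start, against 6.47%, each beginning 117 bases before the start. Capitals mark the match, and a match describes letters only. The windows shown are Cacna1c at chr6:119196410-119196659 on the minus strand, which is 1 of its 3 listed starts and holds none of the motifs, Cacnb2 at chr2:14823842-14824091 on the plus strand and Ryr2 at chr13:12106946-12107195 on the minus strand, each written 5′ to 3′ along the gene.
Cacna1c: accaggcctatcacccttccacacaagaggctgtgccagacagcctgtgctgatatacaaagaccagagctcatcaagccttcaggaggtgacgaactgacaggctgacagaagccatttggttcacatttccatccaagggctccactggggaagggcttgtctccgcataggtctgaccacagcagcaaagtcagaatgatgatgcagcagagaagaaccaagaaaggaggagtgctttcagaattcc
Cacnb2: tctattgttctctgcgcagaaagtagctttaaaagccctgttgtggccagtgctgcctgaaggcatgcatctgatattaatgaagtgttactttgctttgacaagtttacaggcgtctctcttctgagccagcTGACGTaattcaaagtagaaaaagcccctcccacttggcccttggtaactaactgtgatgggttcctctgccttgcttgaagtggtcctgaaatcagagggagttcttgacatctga
Ryr2: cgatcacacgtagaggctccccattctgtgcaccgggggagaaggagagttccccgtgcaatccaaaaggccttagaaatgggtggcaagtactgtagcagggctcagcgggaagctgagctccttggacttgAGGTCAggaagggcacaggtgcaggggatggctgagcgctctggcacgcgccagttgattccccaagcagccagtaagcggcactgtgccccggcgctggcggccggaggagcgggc

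Slc8a1, the sodium-calcium exchanger that extrudes calcium and carries inward current late in the action potential, had the smallest p of the 9 genes in the time-of-day test (limma F test, F = 4.20, adjusted p = 0.17). Its profile turned on ZT11, where the 4 hearts were at -0.14, -0.093, -0.088 and -0.20. At ZT07 they had been at 0.13, 0.083, 0.021 and -0.047, and at ZT15 they were at -0.039, -0.019, 0.075 and 0.0043. All 4 ZT11 hearts lay below all hearts of both neighbouring time points. The mean at ZT11 was lower than at ZT07 by 0.18 (difference -0.18 ± 0.05, limma adjusted p = 0.094, the smallest adjusted p of a member in any step between time points) and lower than at ZT23 by 0.19 (difference -0.19 ± 0.05, adjusted p = 0.23). The step from ZT11 to ZT15 was 0.14 ± 0.05 (limma adjusted p = 0.50).

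Between ZT07 and ZT11 0.194% of all genes passed and 5.89% did not overlap, and among the members 0 passed and 2 of 9 did not overlap, Slc8a1 and Casq2, both lower at ZT11. From ZT11 to ZT15 0% of all genes passed and 3.25% did not overlap, against 2 of 9 members, Cacnb2 and Slc8a1, both higher at ZT15. Taken as light minus dark, the difference of Slc8a1 was -0.054 ± 0.03 (95% interval -0.11 to 0.0020, limma adjusted p = 0.50). The hearts at ZT19 were close together, at -0.0027, -0.0059, -0.017 and 0.016.

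Hcn4 encodes the main pacemaker channel of the sinoatrial node and is low in working ventricle. Its highest mean, 0.070, was at ZT03 with hearts at 0.030, 0.040, 0.093 and 0.12, and its lowest, -0.061, at ZT23 with hearts at -0.057, -0.040, -0.021 and -0.13. The groups did not overlap, and the difference was 0.13 ± 0.04 (limma adjusted p = 0.17). The means moved back and forth between neighbouring time points, at -0.036 at ZT07, 0.038 at ZT11, -0.044 at ZT15 and 0.035 at ZT19, and the 24 h amplitude was 0.013 ± 0.02 (limma adjusted p = 0.96). Light minus dark was 0.047 ± 0.03 (95% interval -0.0049 to 0.10, limma adjusted p = 0.53). The 7 measured sinoatrial node markers, a list without Hcn4, averaged between -0.036 and -0.00041 in the hearts at ZT03 and between -0.018 and 0.036 at ZT23. These ranges overlapped, and the time-point means of the list, -0.023 at ZT03 and 0.014 at ZT23, were in the order opposite to that of Hcn4. Over the 24 hearts Hcn4 and that list's mean had Pearson r = -0.66 (permutation p = 0.00035, adjusted p = 0.020 over 117 relations of a member and a marker list) and Spearman rho = -0.65 (permutation p = 0.00055), with r = -0.53 without the 2 hearts farthest from the median; its part in the result was not tested.

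Ryr2, the release channel of the sarcoplasmic reticulum, had the smallest F of the 9 genes in the time-of-day test (F = 0.76, limma adjusted p = 0.87). Its time-point means lay between -0.036 at ZT11 and 0.058 at ZT03, and both of those time points held widely spread hearts, at -0.20, -0.072, 0.045 and 0.087 and at -0.050, 0.020, 0.039 and 0.22. Light minus dark was 0.016 ± 0.03 (95% interval -0.053 to 0.085, limma adjusted p = 0.91) and was -0.0020 without ZT03 replicate 4.

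Casq2, the calcium-binding protein that buffers the store beside the release channel, had its highest means at ZT03 and ZT07. Its hearts were at 0.076, 0.15, 0.059 and 0.079 at ZT03 and at -0.030, 0.090, 0.13 and 0.044 at ZT07, and then at -0.23, -0.068, -0.046 and -0.069 at ZT11. Every ZT11 heart was below every heart of ZT07, and 5.89% of all genes did not overlap between these 2 time points. The mean at ZT11 was lower than at ZT07 by 0.16 (difference -0.16 ± 0.06, limma adjusted p = 0.27), and the 24 h cosine reached an amplitude of 0.079 ± 0.03, peaking at ZT 2.8 h (limma adjusted p = 0.34), the smallest adjusted p of a member in that test. Light minus dark, 0.040 ± 0.04 (95% interval -0.034 to 0.11, limma adjusted p = 0.76), was 0.012 without ZT19 replicate 2, which was at -0.29.

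Casq2 varied with 3 marker lists. Over the 24 hearts its values went with the mean of 7 fibroblast markers (Pearson r = 0.58, Spearman rho = 0.58, permutation adjusted p = 0.084 and 0.055) and ran against that of 5 ventricular markers (r = -0.59, rho = -0.61, permutation adjusted p = 0.084 and 0.035), and against that of 11 cardiomyocyte markers (r = -0.55, rho = -0.66, permutation adjusted p = 0.13 and 0.017). Without the 2 hearts farthest from the median these were r = 0.60, -0.42 and -0.65. At ZT03 the fibroblast mean was between 0.035 and 0.17 in the 4 hearts and the cardiomyocyte mean between -0.15 and 0.018; at ZT23 they were between -0.10 and 0.032 and between -0.038 and 0.14. In the time-of-day test 4 of 7 fibroblast, 3 of 5 ventricular and 3 of 11 cardiomyocyte markers had an unadjusted p under 0.05. The share over all genes was 13.4%. Only 1 of these markers, of the cardiomyocyte list, passed after adjustment. For light against dark the counts were 3, 1 and 3, against 10.5% of all genes, and 0 passed. The part of these lists in the profiles of Casq2 and of the other genes that were higher at ZT03 was not tested. In myocardium measured as bulk tissue, fewer cells of a type and less RNA per cell cannot be told apart.

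Atp2a2 encodes SERCA2, the pump that refills the reticulum, and Pln encodes phospholamban, which restrains it. Both varied little from heart to heart: the SD within time points was 0.027 for Pln, below that of all but 4.17% of genes, and 0.046 for Atp2a2, below all but 18.7%. For Atp2a2 the time-point means ran from -0.049 at ZT19 to 0.031 at ZT11 (limma F test, adjusted p = 0.68), and light minus dark was 0.028 ± 0.02 with a 95% interval from -0.014 to 0.069, and 0.017 without ZT19 replicate 1. The hearts at ZT07 were at 0.015, 0.0018, 0.033 and 0.019 and those at ZT19 at -0.15, -0.0018, -0.023 and -0.026, which do not overlap, against 3.63% of all genes between these time points.

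Pln was lowest at ZT03, where the hearts were at -0.051, -0.073, -0.036 and -0.030. At ZT07 they were at 0.016, -0.013, 0.031 and 0.046 and at ZT23 at 0.018, 0.036, -0.017 and 0.033. All 4 ZT03 hearts lay below all hearts of ZT07 and ZT23, by 0.068 ± 0.02 and 0.065 ± 0.02 on average (limma adjusted p = 1.0 and 0.24). Pln was the only member with an unadjusted p under 0.05 for a 12 h component (amplitude 0.029, adjusted p = 0.42), where 0.00451% of all genes passed and 10.5% had such a p. From ZT03 to ZT07 0% of all genes passed and 2.99% did not overlap, and of the members Pln alone did not overlap.

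The 3 further within-heart differences paired a protein with its regulator or partner or set opposing transporters against each other. Atp2a2 minus Pln was higher in the light by 0.044 (light median 0.0082, dark median -0.015; permutation test, two-sided, adjusted p = 0.055). Slc8a1 minus Atp2a2, the extruding against the storing transporter, was lower in the light by 0.082 (difference -0.082, light median -0.040, dark median 0.018; permutation adjusted p = 0.055), and its means were -0.16 ± 0.08 (SD, n = 4) at ZT11 and between -0.0084 and 0.047 at the other 5 time points. Ryr2 minus Casq2 differed by -0.024 (permutation adjusted p = 0.61), and by -1.1e-05 without ZT19 replicate 2. None of these 3 passed after adjustment over the 4 differences.

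**Figure D3:**
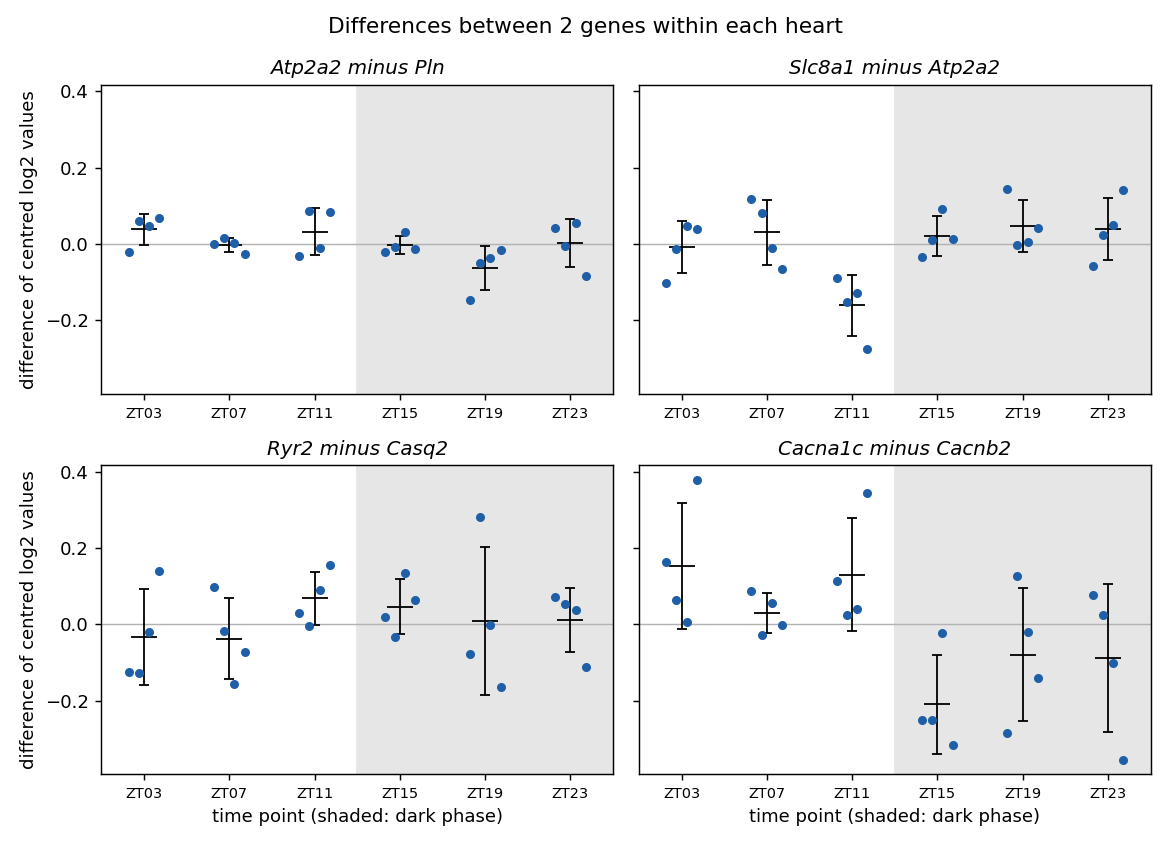
The 4 log differences taken within each heart (points) at the 6 time points, with the mean and SD of 4 hearts as black bars and the dark phase shaded. For Cacna1c minus Cacnb2 all 12 light-phase hearts lie above the dark-phase median of -0.12, and Slc8a1 minus Atp2a2 is lowest at ZT11, with a mean of -0.16.

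Camk2d encodes the delta isoform of the calcium/calmodulin-dependent kinase, the main one in heart, which phosphorylates the ryanodine receptor and phospholamban. Light minus dark was 0.092 ± 0.04 (95% interval 0.016 to 0.17, limma adjusted p = 0.35), and 10 of 12 light-phase hearts were above the dark-phase median. Within the dark phase, the hearts at ZT19 were at 0.11, -0.11, 0.053 and 0.11, whereas those at ZT15 were at -0.14, -0.069, -0.14 and -0.042 and those at ZT23 at -0.089, -0.32, -0.019 and -0.073. The mean at ZT19 was 0.14 ± 0.06 above ZT15 and 0.17 ± 0.06 above ZT23 (limma adjusted p = 0.67 and 0.60). In both of these comparisons ZT19 replicate 2 overlapped the other time point, and ZT23 minus ZT19 was -0.10 without ZT23 replicate 2. Camk2d went with the mean of 8 macrophage and leukocyte markers over the 24 hearts (Pearson r = 0.51, Spearman rho = 0.67, permutation adjusted p = 0.16 and 0.017; r = 0.50 without the 2 hearts farthest from the median). The means of that list were -0.015 at ZT15, 0.038 at ZT19 and -0.044 at ZT23, and its part in the result was not tested.

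The step from ZT23, the end of the dark phase, to ZT03 separated more members than any other step. Over all genes it also had the most that passed, 231, against 43 from ZT07 to ZT11 and 0 at each other step. Non-overlap over all genes was 2.99% from ZT03 to ZT07, 5.89% from ZT07 to ZT11 and 3.25% from ZT11 to ZT15. Of the 9 genes 5 did not overlap between ZT23 and ZT03, against 7.54% of all genes: Cacna1c, Hcn4, Casq2 and Camk2d were higher in every ZT03 heart, and Pln was lower. After adjustment 0 of 9 passed, against 1.04% of all genes, with 4 of 9 at an unadjusted p under 0.05 against 11.9%. The differences were 0.25 for Cacna1c, 0.13 for Hcn4, 0.14 for Camk2d, 0.082 for Casq2 and -0.065 for Pln. Against ZT15, the time point 12 h away, 3 of 9 did not overlap, Cacna1c, Casq2 and Camk2d, all higher at ZT03, against 8.03% of all genes; 1.08% of all genes passed there and 0 members did. Leaving out ZT23 replicate 2 took the Camk2d difference from ZT23 to 0.074. Both comparisons use the same ZT03 hearts, whose fibroblast marker means, between 0.035 and 0.17, were above those at ZT23, between -0.10 and 0.032, and at ZT15, between -0.099 and 0.023. The cardiomyocyte marker means of ZT03 overlapped those of both time points. The part of these lists in the differences was not tested.

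**Figure D4:**
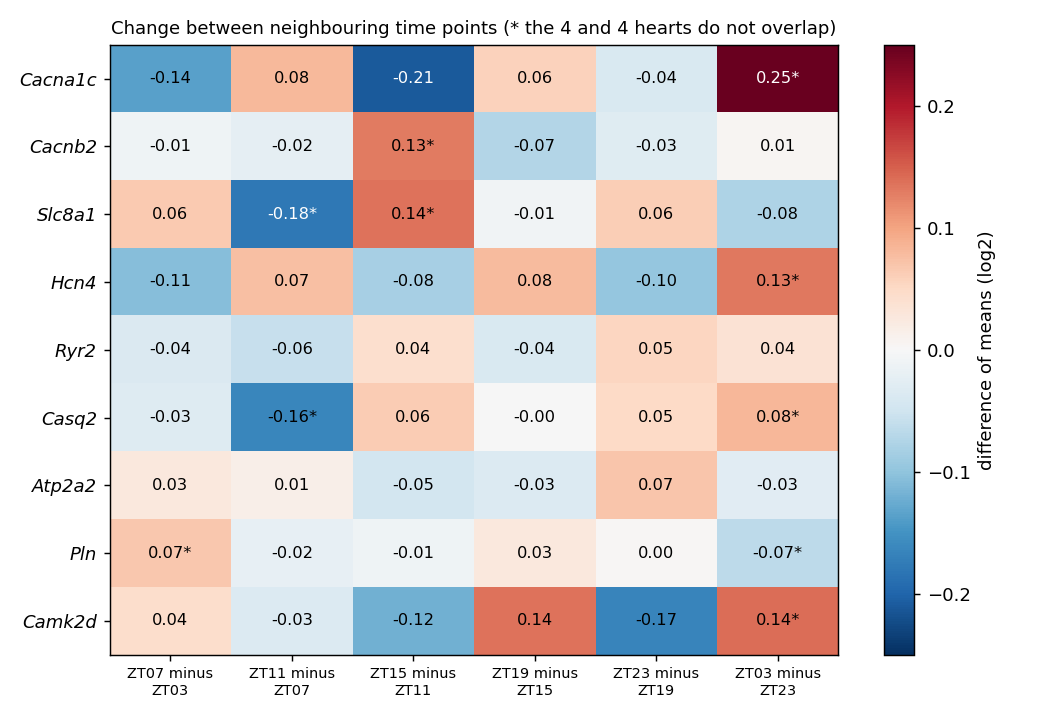
Differences between neighbouring time points for each of the 9 genes, on the log scale taken as log2; colour and the printed value give direction and size, and an asterisk marks cells in which the 4 and 4 hearts do not overlap. The column of ZT03 minus ZT23 holds 5 asterisks, and Slc8a1 has one on either side of ZT11.

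Among themselves the 9 genes formed 36 pairs, of which 19 had a positive Pearson r over the 24 hearts and the median r was 0.027. None passed after adjustment over the 36 pairs, and 3 had an unadjusted permutation p under 0.05, all among the L-type channel pore, the release channel and the pump. These were Cacna1c with Atp2a2 (r = 0.57, rho = 0.44), Cacna1c with Ryr2 (r = 0.54, rho = 0.35, and r = 0.27 without the 2 hearts farthest from the median of Cacna1c) and Ryr2 with Atp2a2 (r = 0.55, rho = 0.61), each with an adjusted permutation p of 0.097 for r. With quantile normalization these 3 pairs had r = 0.49, 0.47 and 0.51 over all hearts (permutation adjusted p = 0.26 for each). The time-point means were then removed, so that only hearts of the same time were set against each other. The same 3 pairs then had r = 0.74, 0.69 and 0.69 (permutation adjusted p = 0.018, 0.035 and 0.018). They are formed by only 3 genes and so are not independent of each other. How often pairs drawn from all genes reach such an r was not computed, so the values cannot be called particular to these genes. The only other pair that passed within time points was Casq2 with Camk2d (r = 0.62, permutation adjusted p = 0.035). Over all hearts this pair had r = 0.40 (permutation adjusted p = 0.38). It had r = 0.34 without ZT11 replicate 1 and ZT19 replicate 2, the 2 hearts farthest from the median of Casq2 (permutation adjusted p = 0.51). Values within time points were not computed again with another scaling or with hearts left out. The arrays share a normalization that no source used here names, and ZT11 replicate 4 held the highest or lowest value of 4 members and ZT11 replicate 1 of 3.

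**Figure D5:**
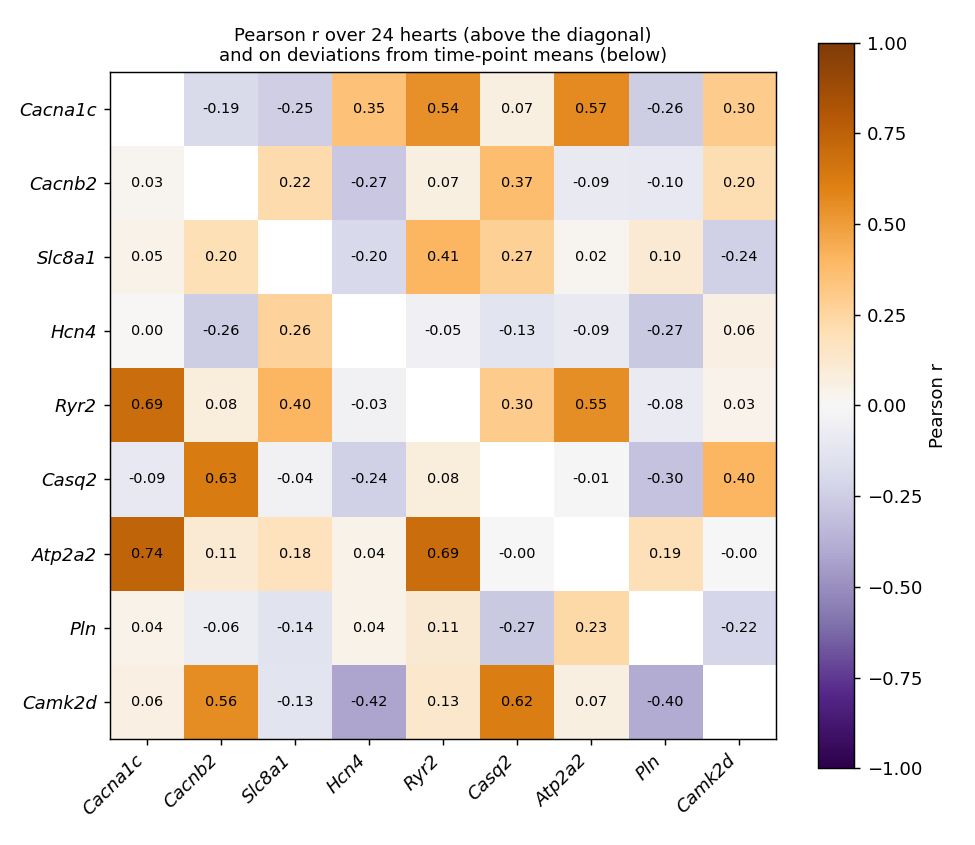
Pearson r between each pair of the 9 genes over 24 hearts (above the diagonal) and with time-point means removed (below the diagonal), with colour from -1 to 1. Cacna1c, Ryr2 and Atp2a2 share the highest values in both, from 0.54 to 0.57 over all hearts and from 0.69 to 0.74 within time points.

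Around these 9 genes, 7 lists of pathway genes, which leave the 9 out, held 122 genes, of which 102 were measured. In the time-of-day test 3 of 102 passed, Atp2c1, Ppp3cb and Vdac2, against 1.48% of all genes, and 24 (23.5%) had an unadjusted p under 0.05, against 13.4% of all genes. In light against dark 1 passed, against 0.379% of all genes, and 20 (19.6%) had an unadjusted p under 0.05, 10 in each direction, against 10.5% of all genes; the median difference was 0.0049, against -0.0022 over all genes. For the 24 h and the 12 h term 0 passed in limma, with 19 (18.6%) and 20 (19.6%) at an unadjusted p under 0.05, against 10.8% and 10.5% of all genes.

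Hrc, the histidine-rich calcium-binding protein of the reticulum lumen, was lower in the light. Its light-phase hearts ran from -0.39 through a median of -0.14 to 0.013 and its dark-phase hearts from -0.10 through 0.062 to 0.20, and all 12 light-phase hearts were below the dark-phase median. The difference was -0.20 ± 0.04 (limma adjusted p = 0.0325). It was the only one of the 20 measured genes of the release complex and store to pass, and the 3 others with an unadjusted p under 0.05 were lower in the light too. The call was lost, with an adjusted p of up to 0.067, without ZT03 replicate 3, ZT07 replicates 1, 3 or 4, ZT11 replicate 4, ZT15 replicates 2 or 3, ZT19 replicates 2 or 3, or ZT23 replicates 1, 2 or 3, and without ZT11 replicate 1 and ZT19 replicate 2 together (adjusted p = 0.061). In the same list Casq1, the skeletal isoform of Casq2, had the smallest p in the time-of-day test (limma adjusted p = 0.062), and Hrc came next (0.067). The mean of 11 cardiomyocyte markers was -0.075 at ZT03, -0.039 at ZT07 and between 0.0054 and 0.050 at the later time points. Of these markers 3 had an unadjusted p under 0.05 for light against dark and 0 passed in limma. In the time-of-day test 1 of the 11 passed, against 1.48% of all genes, and 3 had an unadjusted p under 0.05, against 13.4%. The part of this list in the Hrc result was not tested.

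Ppp3cb, a catalytic subunit of the calcium-dependent phosphatase calcineurin, was the strongest of the 27 measured kinases, phosphatases and adrenergic genes, of which 11 had an unadjusted p under 0.05 in the time-of-day test. Its mean was 0.40 at ZT03, where hearts lay between 0.27 and 0.51, and -0.17 at ZT11, where they lay between -0.41 and -0.024 (limma F test, adjusted p = 0.015). Its mean at ZT03 was 0.51 ± 0.09 above that at ZT23 (adjusted p = 0.0075). Ppp2ca, a catalytic subunit of another phosphatase, was at an adjusted p of 0.077. Vdac2, a channel of the outer mitochondrial membrane, had hearts between 0.12 and 0.29 at ZT03 and between -0.16 and -0.077 at ZT11 (limma F test, adjusted p = 0.018). Micu3, a regulator of the mitochondrial calcium uniporter, came next in that list (limma adjusted p = 0.15). Without ZT03 replicate 3 both Ppp3cb and Vdac2 were at an adjusted p of 0.051.

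Atp2c1, the calcium pump of the Golgi, had means of 0.15 at ZT03, 0.14 at ZT07 and -0.19 at ZT11 (limma F test, adjusted p = 0.033). Of the 11 measured pumps and exchangers it was the only one to pass, and Atp2b1, a plasma membrane calcium pump, came next (adjusted p = 0.39). The call for Atp2c1 was lost, with an adjusted p of up to 0.074, without ZT03 replicates 2, 3 or 4, ZT07 replicates 2, 3 or 4, ZT11 replicates 2 or 3, ZT15 replicate 4 or ZT23 replicate 2, and without ZT11 replicate 1 and ZT19 replicate 2 together (adjusted p = 0.059).

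In the other 3 lists 0 genes passed any of the 4 tests over all genes. Cacna2d1, the accessory alpha-2-delta subunit that is associated with the L-type pore, was first of the 15 measured calcium channel subunits (limma F test, adjusted p = 0.11) and was 0.30 ± 0.07 higher at ZT03 than at ZT23 (adjusted p = 0.042), the direction seen for Cacna1c. That call was lost, with an adjusted p of up to 0.14, without ZT03 replicates 1, 2 or 3, ZT07 replicates 2 or 4, ZT19 replicate 3 or any 1 of the 4 ZT23 hearts, and with quantile normalization (0.27, adjusted p = 0.057). Of 6 alternatives other than leaving out 1 heart, 4 kept the call for Cacna2d1. Cacnb1, another beta subunit, was second in the time-of-day test (limma adjusted p = 0.33). At ZT03 it was lower than at ZT23, the direction opposite to that of Cacna2d1 (difference -0.16 ± 0.07, limma adjusted p = 0.39). Light minus dark was positive for 7 of these 15 genes. Among the 10 measured sodium and pacemaker channel genes Trpm7 and Fxyd1, which modulates the sodium pump, came first (limma adjusted p = 0.22 and 0.31). Among the 10 genes of store-operated and TRP entry these were Saraf, which turns off store-operated entry, and Trpc1 (limma adjusted p = 0.31 and 0.48).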

How the data were processed

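The authors deposited log-scale values, taken as log2, for 34351 array features of 24 hearts, already centred per feature; this was read from the values (largest absolute feature median 5e-07). Summarisation, normalization, log base and any batch are not named in the sources. Tissue was snap frozen, and 500 ng of TRIzol-extracted RNA was labelled with biotin for Affymetrix arrays, per the labels' protocols.

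Features with 1 symbol (23521; 1814 had several and 9016 none) were averaged per gene. All 22180 genes were tested without a filter with limma 3.58.1 in R 4.3.3 and Benjamini-Hochberg adjustment at 0.05: time of day, light minus dark, steps between time points, and cosines of 24 h and 12 h. Permutation tests (100000) were run in Python 3.11.15. The fits were tested on simulated data. The text names the 9 members and, per pathway list, genes passing a test plus the 2 with the smallest time-of-day p. Per member it names the 2 most correlated genes with a proper symbol (not RIKEN, Gm, LOC or similar names). Members, lists and tests were chosen with earlier results of these data known; the relations to marker lists were added after seeing the values. Alternatives were feature-level tests, 2 other scalings, array weights, robust fits, a replicate block and hearts left out. The hearts left out together, ZT11 replicate 1 and ZT19 replicate 2, were the 2 farthest from the median of Casq2. The array weight of ZT19 replicate 2 was 0.96, so their joint omission is not a general check of array quality.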

Additional observations from a re-analysis of the deposited data

Results flagged for a closer look

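Of 54 sets of 4 hearts, 1 for each member and time point, 3 held a heart far from the other 3 by Dixon's criterion, which chance gives in about 1 of 20 sets. Cacnb2 at ZT03 was at 0.114 in replicate 3, with the others between -0.070 and -0.049. Casq2 at ZT11 was at -0.2334 in replicate 1, with the others between -0.069 and -0.046; that heart also held the extremes of 16.2% of all genes. Atp2a2 at ZT19 was at -0.146 in replicate 1, with the others between -0.026 and -0.0018.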

How the results depend on the processing

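With 31 alternatives for each of 13 tests, 24 of which left out 1 heart, 0 of 9 members passed in any of the 403 counts. The smallest adjusted p of a member came to 0.063 (ZT11 minus ZT07, without ZT03 replicate 1), 0.071 (time of day, without ZT03 replicate 1), 0.074 (ZT03 minus ZT15, without ZT11 replicate 4) and 0.078 (light minus dark, without ZT11 replicate 1). Of 272 light-dark values of members 1 changed sign, that of Ryr2, which was -0.0020 without ZT03 replicate 4 and up to 0.035 with another heart left out. With 1 heart left out, Slc8a1 minus Atp2a2 ran from -0.097 to -0.061 and had an adjusted p under 0.05 without ZT03 replicate 3, ZT07 replicate 1, ZT07 replicate 2 or ZT23 replicate 1; Atp2a2 minus Pln ran from 0.033 to 0.051 and did so without ZT23 replicate 1 or ZT23 replicate 3. Ryr2 minus Casq2 ran from -0.041 to -1.1e-05, with no adjusted p under 0.05. The cause was not tested.

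With the replicate number as a block, 0 members passed and 218 genes passed the time-of-day test, against 329 without it; same-numbered hearts had a median correlation of -0.00075, with 8 of 60 pairs over 0.1, so the numbers were not taken to pair hearts. Counts over all genes moved more than members: leaving out 1 heart gave 28 to 467 for time of day, 51 to 183 for light minus dark (84 in all hearts), 3 to 45 for the 24 h term (14) and 0 to 148 for the 12 h term (1), and the other alternatives gave 218 to 477, 71 to 144, 3 to 59 and 0 to 14. ZT03 minus ZT15 (239) ran from 25 to 430, ZT03 minus ZT23 (231) from 53 to 404, and ZT11 minus ZT07 (43) from 2 to 322. A filter on low values was not run, since centred values hold no level beyond the 2 coarse classes, and signal over background is unknown.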

Other observations

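The genes whose values were most like those of each member over the 24 hearts were, by Pearson r, Depp1 (0.83) and Lrrk1 (0.82) for Cacna1c, Palmd (0.72) and Hsp90aa1 (0.68) for Cacnb2, Magt1 and Nectin3 (both 0.67) for Slc8a1, and Ebna1bp2 (0.72) and Inmt (0.71) for Hcn4. For Ryr2 they were Pdhx and Syt7 (both 0.79), for Casq2 Slc25a46 (0.87) and Fut8 (0.80), for Atp2a2 Itpkb (0.85) and Fyn (0.79), for Pln Lrrc10 and Olfr1339 (both 0.68), and for Camk2d Atp6v1h (0.77) and Exosc1 (0.74). These are the highest among genes with a proper symbol, with RIKEN, Gm, LOC and similar names left out. The median absolute r of a member with all genes was between 0.14 and 0.20. Each named r was picked as among the largest over all such genes, so it lies above that median by selection. These likenesses were not tested. Lrrc10 is also on the list of ventricular markers.

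Of the 117 relations between a member and a marker list, 2 had a permutation adjusted p under 0.05 for Pearson r over 24 hearts, that of Hcn4 given above and that of Atp2a2 with the mean of 7 smooth muscle and pericyte markers (r = 0.69, rho = 0.66, adjusted p = 0.020; r = 0.62 without the 2 hearts farthest from the median). By Spearman rho there were 6: these 2, and those given above of Cacna1c with the skeletal muscle list, Camk2d with the macrophage and leukocyte list, and Casq2 with the cardiomyocyte and ventricular lists. The smooth muscle and pericyte list includes Abcc9, which cardiomyocytes express too. The mean of the atrial markers varied widely between hearts of 1 time point, from -0.13 to 0.35 at ZT03.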
